A study of Danio rerio with 6 samples.

Results

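Among the proteases read by the array, the meprin gene *mep1a.1* and the cathepsin B gene *ctsbb* had much lower signal in *vhl* mutant zebrafish embryos than in wild-type embryos, and the calpain gene *capn2l* had much higher signal. These 3 genes, of 3118 genes with a symbol, were chosen because their probes differed in opposite directions between the groups. Their changes are therefore given as a description, with no test. Each gene had 1 probe with a symbol, read by 1 spot per array, and 3159 of the 41031 zebrafish probes had a symbol. Whether a probe without a symbol also reads these genes was not tested. The probe of *mep1a.1* (CUST_9885_PI415676703) was named through its RefSeq accession. The probes of *ctsbb* (CUST_9373_PI415676703) and *capn2l* (CUST_6092_PI415676703) took their symbols from the probe tables of the study.

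RNA came from whole embryos of a TL/LWT mix at 4 days post fertilisation (dpf), raised in E3 medium with methylene blue. The 3 wild-type pools (replicates 2, 3 and 4) and the 3 *vhl* mutant pools (replicates 1, 3 and 4) each held 30 embryos, and each pool was hybridised to its own one-colour Agilent array. The methods of the study describe mutants homozygous for the hu2117 allele of *vhl*, obtained from parents that also carried the reporter transgene phd3::EGFP (allele i144). Whether the wild-type pools carried that transgene is not given in the sources used here. The product of *vhl*, the von Hippel-Lindau protein, has the α subunit of HIF (Hypoxia Inducible Factor) degraded, and the comparison asks which transcripts change when it is lost. No probe carried the symbol *vhl*, so the mutated gene itself gave no check of the labels.

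The 3 wild-type arrays lay on 1 slide and the 3 *vhl* mutant arrays on another, and 0 of the 2 slides held both groups, so slide or scan day and genotype cannot be told apart. Replicate 1 of the *vhl* mutants stood apart from the other arrays, at -55.3 on the second principal component against 3.84 to 24.8. On replicate 3 of the *vhl* mutants, 2 spots had a local background over 100 times the median of that array. Between 67.2% and 72.4% of the zebrafish spots of an array were well above background by the flag of the feature extraction software. Values are intensities after background correction and quantile normalisation, on the log2 scale, and the small number of arrays limits their precision. The study calls the pools biological replicates, and no source used here says whether they came from separate matings.

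Proteases cut peptide bonds, and the 3 genes stand for 3 protease families and 3 places in the cell. Meprins are zinc metalloproteases of the astacin family, which in mammals sit on the brush border of intestine and kidney tubule and cut peptides, cytokines and matrix proteins. Cathepsin B is a cysteine protease of the papain family that works mainly in lysosomes, where it breaks down proteins taken up by the cell. Calpains are cysteine proteases of the cytosol that are switched on by calcium and trim their substrates at a few positions. A classical calpain pairs a large catalytic subunit, of the kind that *capn2l* is named for, with a small regulatory subunit.

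The meprin gene *mep1a.1* encodes an α subunit of meprin A. Its normalised log2 intensity was 11.66, 11.64 and 11.24 on wild-type replicates 2, 3 and 4. On *vhl* mutant replicates 1, 3 and 4 it was 8.21, 8.21 and 8.36. All wild-type arrays lay above all *vhl* mutant arrays, with a gap of 2.88 between the lowest wild-type and the highest *vhl* mutant array. The wild-type mean was 11.51 ± 0.24 (SD, n = 3). The mean of *vhl* mutants was 8.26 ± 0.09 (SD, n = 3), which gives a log2 fold change of -3.25 or 9.54-fold lower signal. Before any correction the spot had a median pixel brightness of 2641 to 3667 on wild-type arrays and 215 to 278 on *vhl* mutant arrays. The spot stayed well above background on all 3 arrays of both groups, and the local background around it was 18 to 21.5 in *vhl* mutants. The lower signal of the mutants was thus a measured level. In RNA of whole embryos, fewer cells of a type and less RNA per cell cannot be told apart.

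The cathepsin gene *ctsbb* is a cathepsin B gene, as its name in the study's tables gives it. Its log2 intensity was 10.26, 10.65 and 9.96 on wild-type replicates 2, 3 and 4. On *vhl* mutant replicates 1, 3 and 4 it was 7.21, 7.07 and 7.06. The groups did not overlap, and the wild-type arrays spread over 0.69 where the *vhl* mutant arrays spread over 0.15. The means were 10.29 ± 0.35 (SD, n = 3) and 7.11 ± 0.08 (SD, n = 3), a log2 fold change of -3.18 or 9.04-fold lower signal in *vhl* mutants. The spot brightness was 1047.5 to 1675 in wild-type and 84 to 93 in *vhl* mutants. In the mutants the spot was 3.82 to 4.89 times its local background and still well above background on all 3 arrays.

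The calpain gene *capn2l* is named for the large subunit of calpain 2 (m-calpain) and went the other way. Its log2 intensity was 7.03, 6.54 and 6.45 on wild-type replicates 2, 3 and 4. On *vhl* mutant replicates 1, 3 and 4 it was 10.89, 11.53 and 11.45. The lowest *vhl* mutant array was 3.85 above the highest wild-type array. The wild-type mean was 6.67 ± 0.31 (SD, n = 3). The mean of *vhl* mutants was 11.29 ± 0.35 (SD, n = 3), a log2 fold change of 4.61 or 24.5-fold higher signal. In wild-type the probe was well above background on 1 of 3 arrays only. There the spot brightness was 88 on replicate 2, 57 on replicate 3 and 54 on replicate 4, against a local background of 24, 26 and 27. In *vhl* mutants it was 1620, 2379 and 2602, all well above background. The wild-type side of this change therefore lies close to what the array can measure, and its size moves with how the background is treated.

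**Figure D1:**
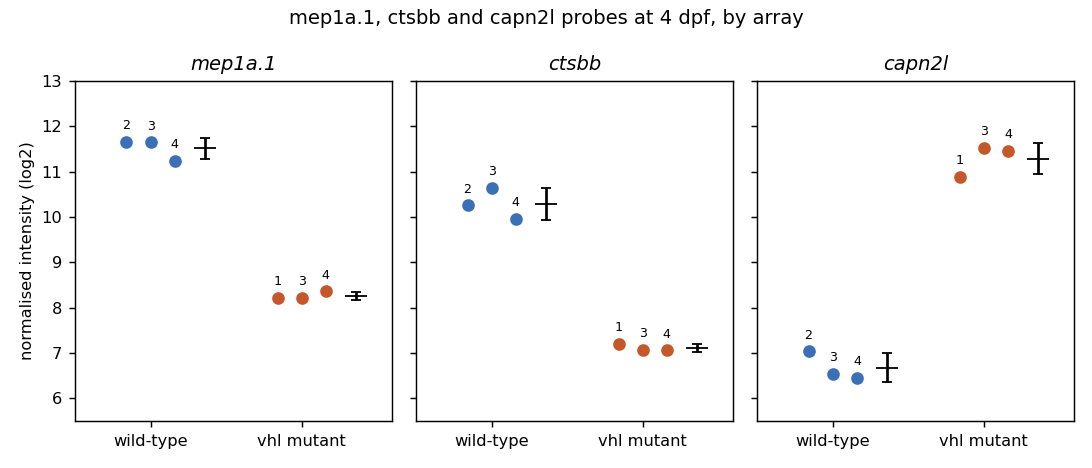
Normalised intensity (log2) of the probes of *mep1a.1*, *ctsbb* and *capn2l* on each array, with the replicate number above each point and the group mean and SD (n = 3) as a bar to its right. The *mep1a.1* and *ctsbb* points of the *vhl* mutants lie below all wild-type points, and the *capn2l* points of the *vhl* mutants lie above them.

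**Figure D2:**
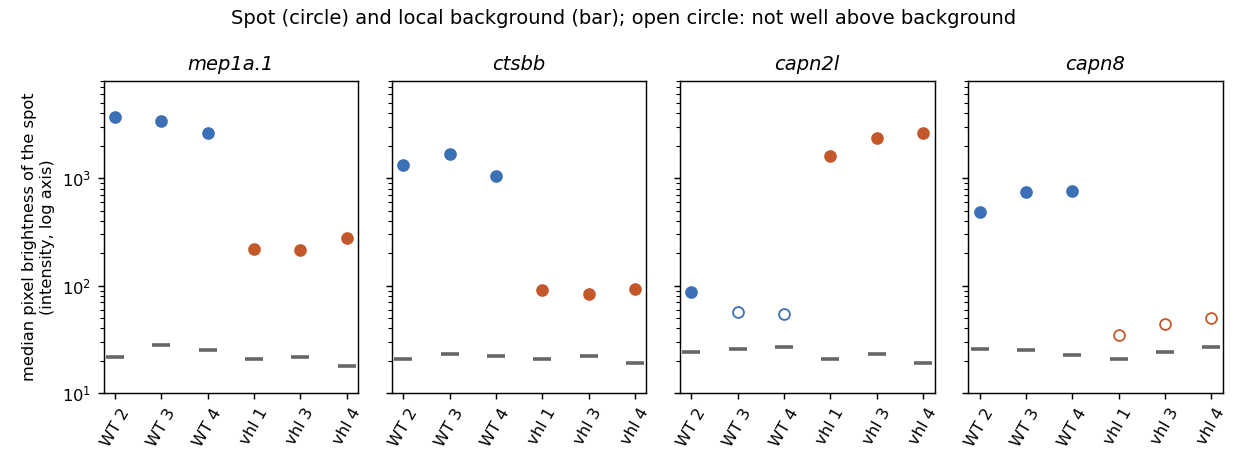
Median pixel brightness of the spot (circle) and of its local background (grey bar) on each array, on a log axis, for the 3 proteases and for *capn8*; open circles mark spots not well above background. The wild-type *capn2l* spots and the *vhl* mutant *capn8* spots lie near the background, while *mep1a.1* and *ctsbb* stay above it in both groups.

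The groups did not overlap for any of the 3 probes, as they also did not for 43.8% of all 41031 probes. Among all probes, 11 fell further than *mep1a.1* and 13 fell further than *ctsbb* with the processing as reported. Over all probes 3.22% were called, which took a limma p adjusted by Benjamini-Hochberg of at most 0.01 and a 2-fold change, 1.67% higher and 1.55% lower in *vhl* mutants.

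The spread between replicates is given as a description too, since the table of changed genes, which holds all 3 genes, was selected with a test that uses this spread. In wild-type the SD of *mep1a.1* was larger than that of 88.7% of the probes well above background on all 3 arrays, and that of *ctsbb* was larger than 94.9% of them. In *vhl* mutants, where both signals were low, the same shares were 22.4% and 21.3%. The SD of *capn2l* in *vhl* mutants was larger than 84.4% of detected probes, against a median SD of 0.16. These shares take in probes of every signal level, and spread at a like signal level was not compared. For *capn2l* the array that stood apart over all probes, *vhl* mutant replicate 1, gave the lowest mutant value. Without it the log2 fold change was 4.77 for *capn2l*, -3.21 for *mep1a.1* and -3.19 for *ctsbb*. With the 2 spots of extreme local background left out, the values were 4.93, -3.39 and -3.41.

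The direction of all 3 changes was the same under all 20 processing alternatives, and their size was not. The genes were chosen on this direction, so its constancy is a description only. The alternatives include leaving out dim probes and using another variance estimate, which cannot change a log2 fold change. The log2 fold change ran from -3.70 to -3.13 for *mep1a.1*, from -4.69 to -2.82 for *ctsbb* and from 4.41 to 8.23 for *capn2l*. In *capn2l* this is a span from 21.3-fold to 301-fold. The highest values came from the processed signal of the feature extraction software, whose wild-type spots were close to 0 after its own background subtraction. That processed signal of *capn2l* was 34.5, 5.11 and 2.76 on wild-type replicates 2, 3 and 4, with an error estimate by the software of 99.6% on replicate 4. On the *vhl* mutant arrays it was 1343, 2146 and 2296. The direction of the *capn2l* change can be read from this probe, and its size only as that range. The size of the *ctsbb* change is a range too, from 7.08-fold to 25.8-fold.

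**Figure D3:**
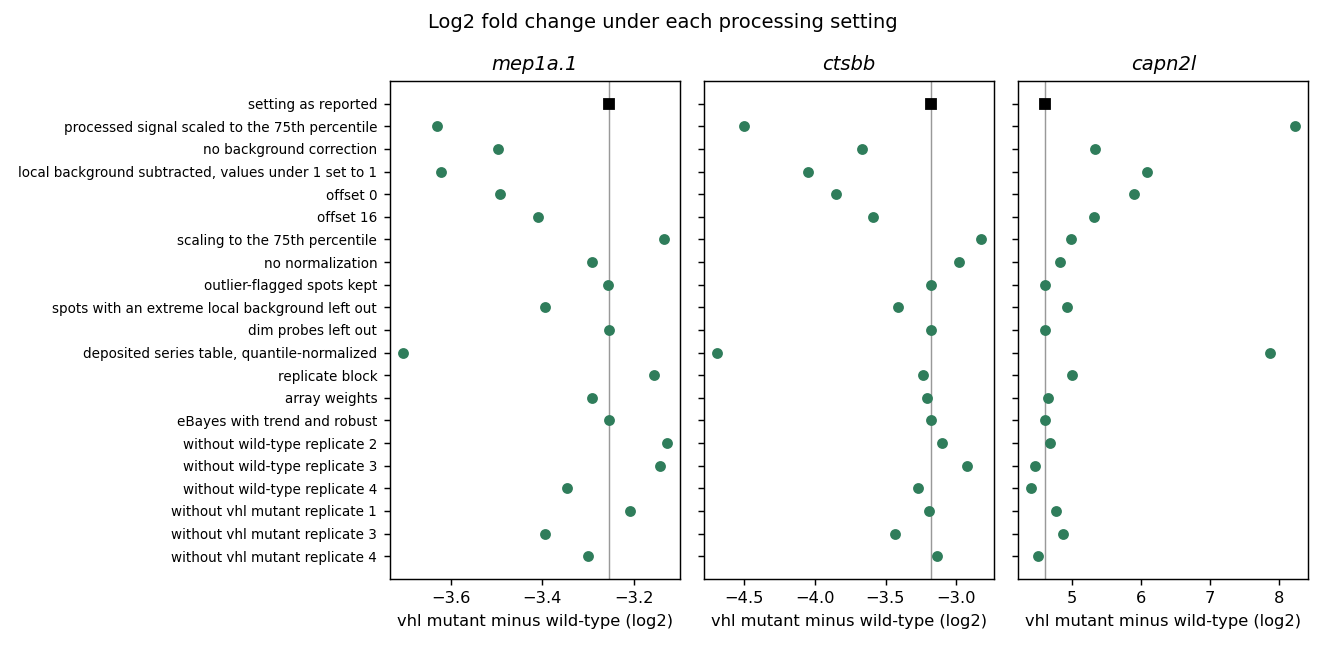
Log2 fold change (*vhl* mutant minus wild-type) of the 3 genes under the setting as reported (square, grey line) and each alternative (circles), with a separate scale for each gene. All values of *mep1a.1* and *ctsbb* lie below 0 and all values of *capn2l* lie above 0, and *capn2l* reaches 8.23 with the processed signal.

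The relatives of these proteases were taken from lists of astacins, cathepsins with legumain, calpains and inhibitors of cysteine proteases, chosen by family name. Of 72 listed genes, 13 had a probe with a symbol, and 10 of these were not among the 3 genes above. Of the 10, 3 were called lower in *vhl* mutants and 0 higher, against 1.55% of all probes called lower. All 3 called genes owe their symbols to the table of changed genes in the study, which was chosen on these same arrays, so the count is not independent evidence. Of the 7 genes outside that table, 0 were called (limma adjusted p of 0.01 with a 2-fold change). That table was itself chosen by p and fold change, so this 0 was largely set in advance. At a limma adjusted p of 0.05 with no fold limit 1 of the 7, *he1.1*, passed, as did 24.4% of all probes. The median log2 fold change over the 10 was -0.37, against 0.00 over all probes. This median includes the 3 genes named through the table of changed genes, so it is not independent evidence either. No listed cystatin or calpastatin, the natural inhibitors of cathepsins and calpains, had a probe with a symbol.

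Of the astacins, *c6ast4* (an astacin with 6 conserved cysteines) had 14.55 ± 0.25 in wild-type (SD, n = 3) and fell by 1.76 on the log2 scale to 12.79 ± 0.52 (limma adjusted p = 0.00702). Leaving out any array other than *vhl* mutant replicate 1 ended this call, with adjusted p of 0.0305, 0.0342 and 0.0263 without wild-type replicates 2, 3 and 4, and 0.0249 and 0.0148 without *vhl* mutant replicates 3 and 4 (limma). The hatching enzyme gene *he1.1*, whose product dissolves the egg envelope, stood at 8.72 ± 0.22 in wild-type against 7.84 ± 0.45 in mutants, with a log2 fold change of -0.88 (limma adjusted p = 0.0411). The tolloid-like gene *tll1*, which in mammals encodes a procollagen-processing protease, was well above background on 0 of 3 arrays in either group. Among these relatives *c6ast4* alone was called.

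Legumain cuts after asparagine in lysosomes and in mammals processes single-chain cathepsins to their mature form. Its gene *lgmn* had 14.66 ± 0.22 in wild-type (SD, n = 3) and fell by 1.12 on the log2 scale to 13.54 ± 0.12 (limma adjusted p = 0.00282). The call ended without wild-type replicate 3 (limma adjusted p = 0.0118), wild-type replicate 4 (0.0176) or *vhl* mutant replicate 4 (0.0111). The cathepsin L-like gene *MGC174152* had 8.53 ± 0.07 and 8.26 ± 0.12, a log2 fold change of -0.27 (limma adjusted p = 0.0639). The paralogue *ctsba* and the other listed cathepsins had no probe with a symbol, so *ctsbb* is described here without its nearest relative.

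Of the calpains, *capn8* went opposite to *capn2l*. In mammals calpain 8 is a calpain of the stomach lining. Its log2 intensity was 8.93, 9.56 and 9.53 on wild-type replicates 2, 3 and 4 and 6.37, 6.41 and 6.37 on *vhl* mutant replicates 1, 3 and 4. The spot brightness was 484 to 765.5 in wild-type, well above background on 3 of 3 arrays, and 35 to 50 in *vhl* mutants, well above background on 0 of 3. The mutant side of this change thus lies at the background, and its size moves with how dim signal is treated. The measured log2 fold change was -2.96 (limma adjusted p = 0.000668). Each dim array was then raised to the weakest signal that counted as well above background, where the probe itself was weaker. With the processing as reported this left *capn8* 7.60-fold lower in *vhl* mutants. Over the processing alternatives its log2 fold change ran from -7.28 to -2.45, so 7.60-fold is not a lower limit. The call was lost with 75th-percentile scaling (log2 fold change -2.45, limma adjusted p = 0.124) and with no normalisation (-2.60, limma adjusted p = 0.182), settings under which 0 of all 41031 probes were called lower. One probe thus passed from clear signal to background while the other passed from near background to clear signal.

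In the RefSeq annotation of assembly GRCz12tu, *capn8* is the protein-coding gene next to *capn2l* on chromosome 22. Beyond *capn8* on that side lie *capn2b* and then *capn1b*, so that 4 calpain genes stand in a row. The probe of *capn1b*, a relative of the large subunit of calpain 1, stood at 8.53 ± 0.07 in wild-type against 8.34 ± 0.17 in mutants, with a log2 fold change of -0.19 (limma adjusted p = 0.219). The row therefore held *capn2l*, with its higher signal, *capn8*, which fell, and *capn1b*, which was not called, while *capn2b* had no probe with a symbol. On the other side of *capn2l* none of the 5 nearest protein-coding genes had a probe with a symbol. Whether the probe of *capn2l* or *capn8* also reads a neighbouring calpain was not tested.

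The remaining 3 calpain probes were not called. The small subunit genes *capns1a* and *capns1b*, whose products pair with the large subunits, had log2 fold changes of -0.28 (limma adjusted p = 0.0842) and 0.10 (limma adjusted p = 0.451). Both were well above background on all arrays, at 15.00 ± 0.13 and 14.72 ± 0.11 for *capns1a* and 12.73 ± 0.11 and 12.84 ± 0.10 for *capns1b* (wild-type and *vhl* mutant, SD, n = 3 per group). The gene *capn12* had a log2 fold change of -0.47 (limma adjusted p = 0.0727). Of the 5 other calpain genes with a named probe, 0 were called higher (limma adjusted p of 0.01 with a 2-fold change, and likewise at 0.05 with no fold limit), and with 1.67% of all probes called higher this count says nothing particular to calpains.

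**Figure D4:**
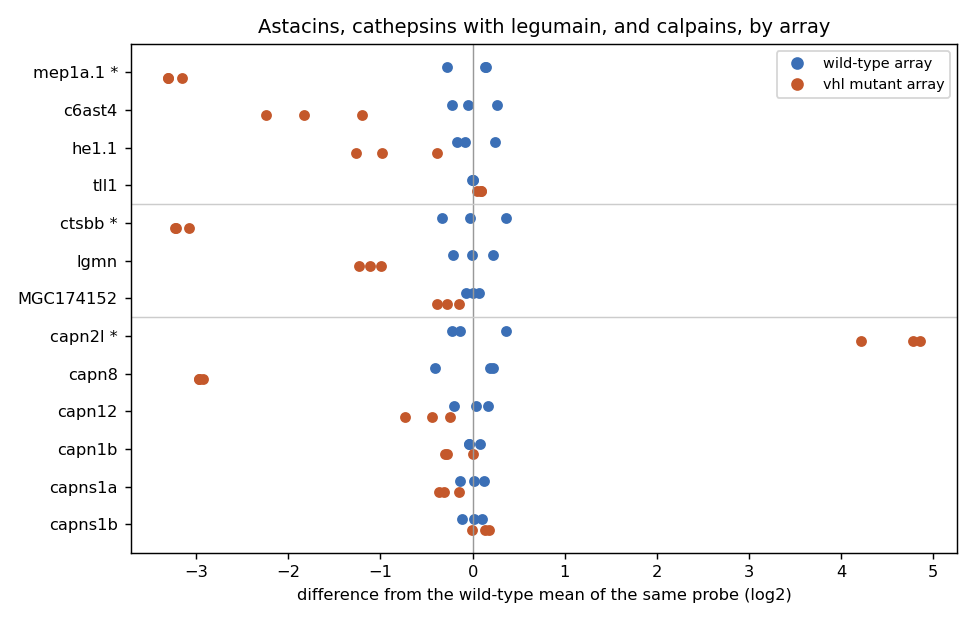
Difference of each array from the wild-type mean of the same probe (log2), for *mep1a.1*, *ctsbb* and *capn2l* (starred) and the 10 relatives with a named probe, with wild-type arrays in blue and *vhl* mutant arrays in orange. The *vhl* mutant points of *capn2l* lie above 4 and those of its neighbour *capn8* near -3, while the small subunits *capns1a* and *capns1b* lie near 0.

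Both genes that fell lie on chromosome 20 in GRCz12tu, where *mep1a.1* stands next to its paralogue *mep1a.2*. That paralogue had no probe with a symbol. The genes *mep1a.1* and *ctsbb* are not neighbours, as neither is among the 5 nearest protein-coding genes on either side of the other.

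The likeness of the patterns was measured as the root mean square difference between log2 values over the 6 arrays, each probe centred on its own mean, against 2660 genes with a symbol. The nearest gene to *mep1a.1* was *ctsbb*, at 0.15. Next to both came *cyp2k6*, a cytochrome P450 gene, at 0.20 from each, and *slc6a18*, whose mammalian orthologue encodes an amino acid transporter of kidney tubules, at 0.25 from each. These have log2 fold changes of -2.98 and -2.82. In wild-type the lowest of the 3 arrays was replicate 4 for *mep1a.1*, *ctsbb* and *slc6a18*. For *cyp2k6* wild-type replicates 4 and 2 were nearly level, at 9.75 and 9.76.

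Nearest to *capn2l* were the lens crystallin gene *crygn2* at 0.33, the collagen prolyl hydroxylase gene *p4ha1b* at 0.35 and *pfkfb3*, which encodes a regulator of glycolysis, at 0.45. Their log2 fold changes were 4.17, 4.90 and 3.89. All 3 shared with *capn2l* the lowest mutant value on *vhl* mutant replicate 1. This measure is mostly set by the size of the change between the groups, on which the 3 proteases were chosen, and all 5 other genes named here are also in the table of changed genes, so it describes the patterns only.

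**Figure D5:**
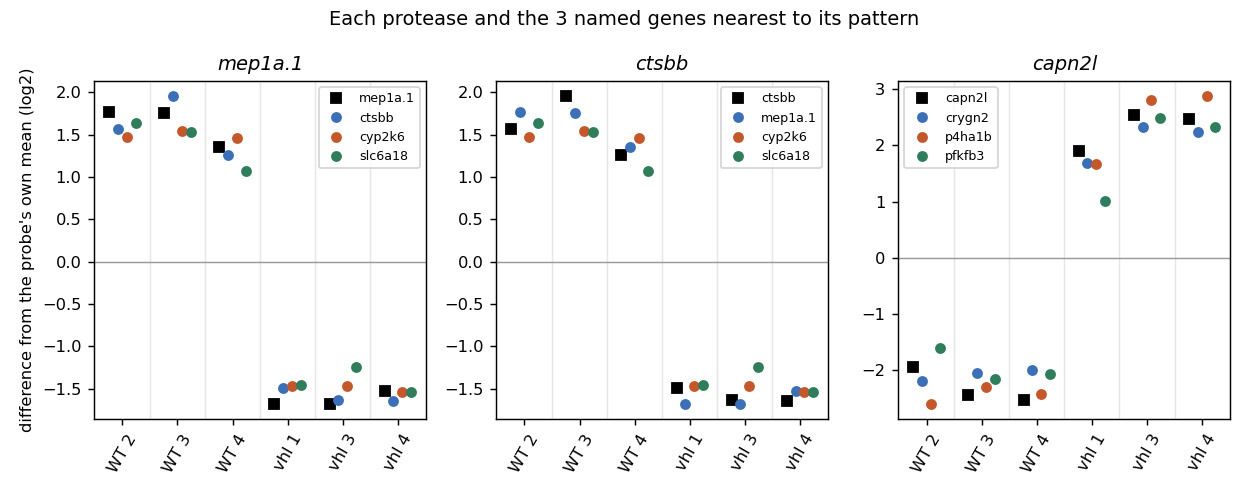
Difference of each array from the probe's own mean (log2) for *mep1a.1*, *ctsbb* and *capn2l* (black squares) and the 3 named genes nearest to each (coloured circles). All genes drawn with *mep1a.1* and *ctsbb* lie above 0 in wild-type and below 0 in *vhl* mutants, and *capn2l* and its 3 nearest genes are lowest among *vhl* mutants on replicate 1.

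Markers of enterocytes and kidney tubule, where mammalian meprins are abundant, were read on the same arrays. Of 27 listed genes of enterocytes and their brush border, 8 had a probe with a symbol and 6 were called lower, against 1.55% of all probes (among them *alpi.2*, *dab2* and *mttp*), but all 6 are named through the table of changed genes. Of the 2 outside it, the villin gene *vil1*, a core protein of microvilli, had a log2 fold change of -0.84 (limma adjusted p = 0.00737, under the 2-fold limit), and *apobb.1*, an apolipoprotein B gene, had 0.11 (limma adjusted p = 0.337). The mean log2 intensity over the 8 probes was 11.42 to 11.55 on wild-type arrays and 10.28 to 10.64 on *vhl* mutant arrays, and 0 of the 8 lacked signal in both groups. Of 17 listed genes of the kidney tubule, 6 had such a probe, with 1 called higher (*rhcga*) and 3 lower (*pdzk1*, *slc5a12* and *slc26a1*), against 1.67% and 1.55% of all probes. All 4 are again named through the table of changed genes. RNA came from whole embryos, so the signal of these listed genes need not come from the kidney tubule alone. The mean over the 6 was 9.14 to 9.40 on wild-type and 8.67 to 8.74 on *vhl* mutant arrays. Both means rest mostly on genes named because they changed. Of the 4 markers of the 2 lists outside that table, 0 were called (limma adjusted p of 0.01 with a 2-fold change). The choice of that table largely set this 0 in advance. At a limma adjusted p of 0.05 with no fold limit *vil1*, *slc9a3.2* and *pax2a* passed, as did 24.4% of all probes. Of these, *vil1* and *slc9a3.2* were lower (log2 fold change -0.84 and -0.42) and *pax2a* was higher (0.47). The *slc9a3.2* probe was well above background on 3 wild-type arrays and 0 *vhl* mutant arrays, so the size of its change is uncertain. The part of these cells in the lower meprin and cathepsin signal was not tested.

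Of 7 liver genes with a named probe, 3 were called higher (*cp*, *fga* and *apom*) and 0 lower, against 1.67% and 1.55% of all probes. By sign alone, 4 of the 7 were higher and 3 lower in *vhl* mutants. The antitrypsin gene *serpina1* had a log2 fold change of -0.87 (limma adjusted p = 0.00468, under the 2-fold limit) and *serpina1l* one of -0.74 (limma adjusted p = 0.0121). The mean over the 7 was 12.71 to 12.84 on wild-type and 13.19 to 13.38 on *vhl* mutant arrays. Of the 7, 4 are in the table of changed genes, so this mean too rests mostly on genes named because they changed. The liver genes outside that table went both ways. Of 3 digestive proteases of the exocrine pancreas, 1 was called higher (*cela1.1*) and 1 lower (*cpa4*), again against 1.67% and 1.55% of all probes. By sign alone, 2 of the 3 were higher and 1 lower. All of these liver and pancreas calls are of genes named through the table of changed genes. Of 4 skeletal muscle genes, 0 were called (limma adjusted p of 0.01 with a 2-fold change), against 3.22% of all probes. At a limma adjusted p of 0.05 with no fold limit 1 passed, against 24.4% of all probes. Counts so near these shares say nothing particular to muscle.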

How the data were processed

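The authors hybridised Cy3-labelled cRNA of each pool to 4 x 44K arrays and read them with Agilent Feature Extraction 10.7.3.1. Per the file headers, the deposited intensity columns used here are median pixel values, uncorrected, for the spot and the area around it. The processed signal, an intensity that the software had background-subtracted, and the deposited series table, which holds the same values rounded, served as alternatives. The deposited spot flags and codes have no unit. As in the study's methods, normexp background correction, quantile normalisation, averaging by probe, lmFit and eBayes were applied (limma 3.58.1, R 4.3.3), on all 6 arrays with no covariate. The offset of 50 and the removal of outlier-flagged and control spots were chosen here. P-values were adjusted over all 41031 probes, and called probes had an adjusted p of at most 0.01 with a 2-fold change. The fit was tested on simulated data with independent noise and no slide effect. Changes were added there only to probes well above background on all 6 arrays, so dim probes were not covered.

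Symbols came first from RefSeq accessions (1752 probes, assembly GRCz12tu, used for names and gene order) and otherwise from the study's probe tables, for 3159 probes in all. Its table of changed genes holds 737 probes and its full table, held in part, 970, and these sets overlap with the RefSeq names. Besides symbols, only whether a probe is in the table of changed genes was taken from those tables. The array was designed on an older build and its probe sequences were not used here. Named are the 3 proteases, all listed relatives with a symbol and the 3 genes nearest to each in pattern. The members and lists were chosen with earlier results of these data known. Of columns in the series table, 0 belonged to no sample. The values of 1 listed marker gene are not reported here.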

Additional observations from a re-analysis of the deposited data

How the results depend on the processing

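The 3 proteases kept their direction under the 20 alternatives tried. The change moved by less than the spread between replicates in 15 of them for *mep1a.1*, 12 for *ctsbb* and 12 for *capn2l*. These counts include leaving out dim probes and eBayes with its trend and robust options, which cannot change a log2 fold change. With the software's processed signal and 75th-percentile scaling the log2 fold changes were -3.63, -4.50 and 8.23 (*mep1a.1*, *ctsbb* and *capn2l*), and 2622 probes were called, 1935 higher and 687 lower, against 1322 (687 higher and 635 lower) as reported. With the deposited series table they were -3.70, -4.69 and 7.87, with subtraction of the local background -3.62, -4.05 and 6.09, with no background correction -3.50, -3.67 and 5.33, and with an offset of 0 they were -3.49, -3.85 and 5.90. With an offset of 16, *ctsbb* was at -3.59 and *capn2l* at 5.31. These settings differ in how dim signal is treated, and the processed signal was also scaled to the 75th percentile in place of quantile normalisation. Scaling to the 75th percentile put *ctsbb* at -2.82 and *capn2l* at 4.98, called 9 probes and 0 relatives, and moved the median of all probes to 0.71. No normalisation called 3 probes and 0 relatives and moved that median to 0.56. Relative to these medians *mep1a.1* was at -3.85, *ctsbb* at -3.54 and *capn2l* at 4.27 in both. The processed signal moved it to 0.33, and relative to it the values were -3.96, -4.83 and 7.90.

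Leaving out 1 array at a time gave -3.39 to -3.13 for *mep1a.1*, -3.43 to -2.92 for *ctsbb*, 4.41 to 4.86 for *capn2l*, 379 to 2136 called probes (379 without wild-type replicate 3, 475 without wild-type replicate 4, 615 without wild-type replicate 2 and 2136 without *vhl* mutant replicate 1) and 1 to 3 called relatives. Without wild-type replicate 3, wild-type replicate 4 or *vhl* mutant replicate 4 only *capn8* was called among the relatives. Over the alternatives the limma adjusted p ran from 0.000283 to 0.182 for *capn8* (called in 18 of 20), from 0.00225 to 0.0839 for *lgmn* (14 of 20) and from 0.00130 to 0.0887 for *c6ast4* (10 of 20).

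The replicate numbers 3 and 4 occur in both groups, but same-numbered arrays did not deviate together (r = -0.01 and 0.02 over probes well above background on all arrays), so the numbers were not taken as pairs. With the replicate number as a block 311 probes and 2 relatives were called, and *capn2l* was at 5.00. Wild-type replicate 2 and *vhl* mutant replicate 1 have no array of the same number in the other group. That fit therefore compares the groups through replicates 3 and 4 only, and its count of calls is not one from all 6 arrays. With RefSeq names alone 0 relatives were called, as none of the 3 called carries one. An adjusted p of 0.05 with no fold limit called 10029 probes.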
